A study of Mus musculus with 2 samples.

Results

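The models described here were incomplete splice matches that lacked the 5′ part of an annotated transcript, the class that the deposited tables name ISM with the subtype Suffix. Such a model uses the last introns of an annotated transcript, in order and without a break, and has none of the introns before them. A suffix model was taken as a member when at least 5 reads were assigned to it in a library. Replicate 1 held 3780 members among 130376 models, and replicate 2 held 2629 members among 118745 models. By intron chain these made 4387 different structures, of which 2022 were members in both libraries. The series has 1 group, adrenal gland of female B6CASTF1/J mice, a first-generation cross of C57BL/6J and CAST/EiJ, aged 18 to 20 months and with no treatment or engineered allele named in the labels. It was read as 2 long-read libraries, replicate 1 and replicate 2, from 1 µg of total RNA each. The biosample descriptions number the females differently, whereas another field repeats 1 number and 1 donor entry, so the labels do not settle whether the libraries came from separate animals. The p-values compare read counts of 1 library with 1 library and cover counting error only.

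A long read that spans a whole complementary DNA shows which exons were joined in 1 molecule. A model without the first exons does not by itself show an inner promoter, since a complementary DNA can also lack its 5′ end, and which of these applies was not tested. Inner promoters are known in many mammalian genes, where they can give a different untranslated leader with the same protein, or a shorter protein that starts at a later methionine codon. The adrenal gland joins a cortex, which makes steroid hormones from cholesterol, and a medulla of chromaffin cells, which makes catecholamines.

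Sequences are shown for inner starts that recurred as the leading suffix model of a gene in both libraries, since the exon at which the model begins is the finding. Each line gives 30 bases of the last lost exon in lower case and the first 30 bases of the first kept exon in capitals, on the transcript strand, from GENCODE M21 transcripts of mm10. All lie inside annotated coding sequence. The exon shown in capitals begins the models of Nr5a1, the nuclear receptor that directs steroidogenic genes, Hao2, a peroxisomal hydroxyacid oxidase, Bag3, a co-chaperone of Hsp70, Sec24c, a cargo adaptor of the COPII coat, Agmat, agmatinase, and Robo1, a receptor for Slit ligands.
Nr5a1: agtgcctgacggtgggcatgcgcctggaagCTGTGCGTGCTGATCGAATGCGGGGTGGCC
Hao2: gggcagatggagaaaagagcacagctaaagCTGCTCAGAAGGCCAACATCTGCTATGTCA
Bag3: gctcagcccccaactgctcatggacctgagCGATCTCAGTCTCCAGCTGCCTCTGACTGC
Sec24c: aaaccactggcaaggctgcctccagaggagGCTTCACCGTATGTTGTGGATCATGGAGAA
Agmat: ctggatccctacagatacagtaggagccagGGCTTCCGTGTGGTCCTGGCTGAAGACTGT
Robo1: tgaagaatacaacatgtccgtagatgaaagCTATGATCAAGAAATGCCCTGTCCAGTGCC
The first kept exon was exon 4 of 7 in Nr5a1 (chr2:38707911-38708539, minus strand), exon 5 of 9 in Hao2 (chr3:98881804-98882087, minus) and exon 3 of 4 in Bag3 (chr7:128541807-128542208, plus). It was exon 9 of 23 in Sec24c (chr14:20688386-20688524, plus), exon 5 of 7 in Agmat (chr4:141757386-141757565, plus) and exon 24 of 29 in Robo1 (chr16:73012875-73013123, plus). The first ATG in the annotated reading frame after the start came 87 codons into the 462 codons of Nr5a1, so 81.2% of its coding sequence lay downstream. It came after 140 of 353 codons in Hao2, 310 of 577 in Bag3, 433 of 1096 in Sec24c, 257 of 358 in Agmat and 1174 of 1612 in Robo1. No value in the files shows whether any of these codons starts a protein.

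A second set of sequences comes from RefSeq (GRCm38.p6), for genes whose leading suffix model lost 1 exon and began within 100 bases of a RefSeq start. Each line gives 100 bases before the RefSeq start and 20 bases from it on, on the gene's strand. Capitals mark 3 promoter motifs, namely the TATA box with the letters TATAAA, the box read by the factor NF-Y with the letters CCAAT, and the GC box read by Sp1 with the letters GGGCGG. Both strands of the 100 bases before the start were searched, and matches of different motifs did not overlap. Dhcr7 codes for the enzyme of the last step of cholesterol synthesis, Pde2a for a cGMP-stimulated phosphodiesterase, Ctsa for the lysosomal protease cathepsin A and S100a13 for a calcium-binding protein.
Dhcr7: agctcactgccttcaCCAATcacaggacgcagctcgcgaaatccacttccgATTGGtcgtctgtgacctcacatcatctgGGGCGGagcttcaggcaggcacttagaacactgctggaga
Pde2a: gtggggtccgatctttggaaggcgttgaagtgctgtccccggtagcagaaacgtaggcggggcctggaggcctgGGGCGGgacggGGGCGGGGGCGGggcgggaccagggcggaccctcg
Ctsa: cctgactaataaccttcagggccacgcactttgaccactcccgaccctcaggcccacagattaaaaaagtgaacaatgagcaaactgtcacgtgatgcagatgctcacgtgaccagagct
S100a13: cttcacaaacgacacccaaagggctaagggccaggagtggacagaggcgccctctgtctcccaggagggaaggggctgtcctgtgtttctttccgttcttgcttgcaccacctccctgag
The windows are chr7:143830114-143830233 for Dhcr7, chr7:101451152-101451271 for Pde2a, chr2:164833673-164833792 for Ctsa and chr3:90514335-90514454 for S100a13, all on the plus strand. The models began 20 bases after the RefSeq start in Dhcr7 and 64 after it in Pde2a in both libraries, and exactly on it in S100a13. In Ctsa the model began 34 bases after the start shown in replicate 1, whereas in replicate 2 it began 898 bases upstream of that position and near another RefSeq start. In all, 8 genes met this rule, and of their windows 3 held GGGCGG, 1 held CCAAT and 0 held TATAAA. Among all 32851 RefSeq windows of the same length, 24.7% held GGGCGG, 18.9% held CCAAT and 5.56% held TATAAA. A match of letters is a description of the window and not a site of binding.

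Library totals were 1478362 reads in replicate 1 and 1007541 in replicate 2. Cortical markers (Cyp11a1, Cyp11b1, Star, Cyp21a1, Hsd3b1) summed to 72119 and medullary markers (Th, Dbh, Chga, Chgb, Pnmt) to 11991 CPM over gene reads in replicate 1, against 71260 and 9406 CPM in replicate 2. Adipocyte markers (Adipoq, Plin1, Ucp1) summed to 2419 CPM in replicate 1, against 1067 CPM in replicate 2, with all 3 detected in both. The muscle markers Acta1 and Ckm had 333 and 240 reads in replicate 1, against 0 and 0 in replicate 2, where 0 allows up to 3 reads, and the kidney markers Umod and Slc12a1 had 0 reads in both. In bulk tissue, fewer cells of a type and less RNA per cell cannot be told apart.

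Suffix models of any depth numbered 29168 in replicate 1 and 24011 in replicate 2. They held 114650 reads, 7.76% of replicate 1 (95% exact interval 7.71 to 7.80), and 81425 reads, 8.08% of replicate 2 (8.03 to 8.13). Most had 1 read, 58.2% in replicate 1 and 61.3% in replicate 2. Members held 66.4% of the suffix reads of replicate 1 and 61.0% of those of replicate 2. At the threshold itself, 757 members of replicate 1 and 572 of replicate 2 had exactly 5 reads, and just below it 1275 suffix models in replicate 1 and 1000 in replicate 2 had 4. The median member had 8 reads in each library, and 75 members of replicate 1 and 52 of replicate 2 had at least 100. Models that lacked the 3′ part, the Prefix subtype, numbered 703 in replicate 1 and 586 in replicate 2 at the same threshold.

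Members recurred between libraries. Of those chosen in replicate 1, 93.3% were read as suffix models in replicate 2 with 1 or more reads, and of those chosen in replicate 2, 96.2% were read in replicate 1. The same shares for suffix models under 5 reads were 37.4% of those in replicate 1 and 49.0% of those in replicate 2. The 2022 members of both libraries held 80.9% of member reads in replicate 1 and 90.8% in replicate 2. Their first base was the same in 77.4%, within 10 bases in 79.9% and within 100 bases in 85.9%. Models were matched by intron chain, which sets the exon that holds the first splice, and most deposited starts are annotated bases. Equal first bases are therefore not a separate measure of the start.

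Most members matched the annotation as their class says. For 3642 of 3780 members in replicate 1 and 2526 of 2629 in replicate 2, an annotated transcript of the same gene ended in the member's intron chain. The remaining members, 138 in replicate 1 and 103 in replicate 2, such as a 22-exon model of Acsl5, a fatty acid activating enzyme, with 361 reads in replicate 1 and 135 in replicate 2, matched no annotated transcript of their own gene in this way.

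Most members began inside a known exon. In replicate 1, 71.5% began in an annotated exon of the gene, 26.6% within 50 bases of an annotated transcript start, 1.38% in an intron and 0.317% outside the gene. In replicate 2 these shares were 68.9%, 28.7%, 1.64% and 0.380%. The first base was exactly that of an annotated inner exon in 60.2% of members in replicate 1 and 56.5% in replicate 2, and exactly an annotated transcript start in 26.4% in replicate 1 and 28.4% in replicate 2. Only 13.4% in replicate 1 and 15.1% in replicate 2 began on neither. The deposited starts therefore resolve the exon and seldom a base within it, and how they were set is not given in the sources used here. The last base was exactly an annotated end in 88.3% of members in replicate 1 and 89.4% in replicate 2. Of members in genes with a RefSeq promoter entry, 5.59% in replicate 1 and 7.41% in replicate 2 began within 100 bases of a RefSeq start.

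Members lost a median of 4 exons in each library, with a lower quartile of 1 and an upper quartile of 8. The count is the parent's exons less the model's exons. Of members with a parent, 18.5% in replicate 1 and 21.9% in replicate 2 began upstream of their first kept exon. Such a model can still cover bases of exons counted as lost. A single exon was lost by 925 members in replicate 1 and 674 in replicate 2, with 29469 reads in replicate 1 and 18451 in replicate 2. At least 10 exons were lost by 19.6% of members in replicate 1 and 19.7% in replicate 2, with 12.4% of member reads in replicate 1 and 11.9% in replicate 2. The longest loss was in Col5a3, a fibrillar collagen chain, with 65 exons in replicate 1 and 58 in replicate 2. Members kept a median of 74.3% of the parent's spliced length in replicate 1 and 73.7% in replicate 2. The whole coding region was kept by 506 members in replicate 1 and 379 in replicate 2, with 29.9% of member reads in replicate 1 and 28.9% in replicate 2, and part of it by 3065 in replicate 1 and 2093 in replicate 2. A member had more reads than its parent in 16.4% of cases in replicate 1 and 17.3% in replicate 2.

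**Figure D1:**
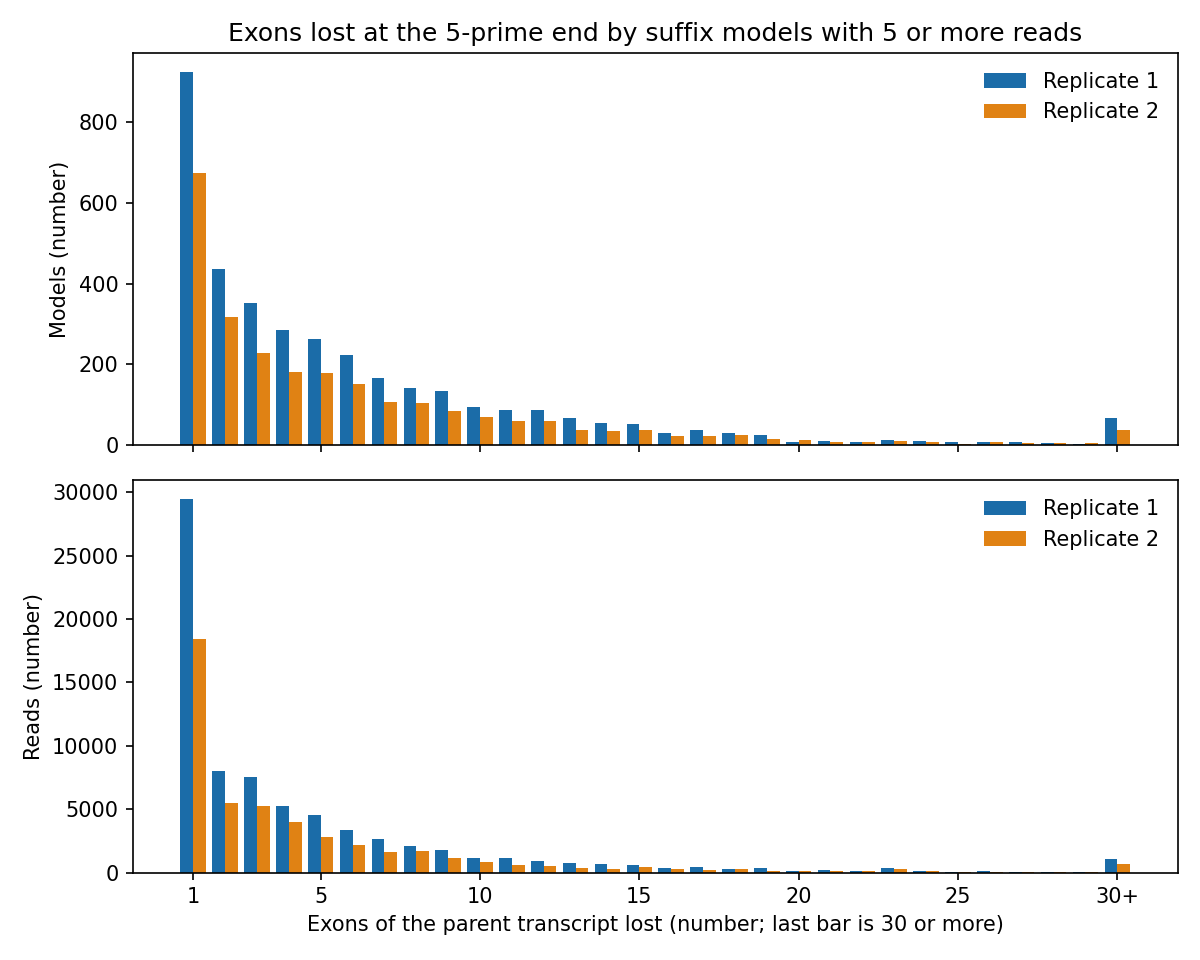
Number of suffix models with at least 5 reads (upper panel) and their reads (lower panel) by the number of parent exons lost at the 5′ end, for replicate 1 (blue, left bar) and replicate 2 (orange, right bar). The tallest bars are at 1 exon lost, 925 models in replicate 1 and 674 in replicate 2, and the last bar gathers losses of 30 or more.

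Hsd3b1, 3β-hydroxysteroid dehydrogenase of the cortex, held the most reads on suffix models. Its leading member had 4 exons, with 8448 reads in replicate 1 and 6193 in replicate 2, and lost only the first of 5 exons of transcript Hsd3b1-202. It began at chr3:98858341, the first base of the second exon and 1453 bases inside the gene from the annotated start at 98859794, and kept the whole coding region. A 3-exon member had 912 reads in replicate 1 and 614 in replicate 2. Suffix models held 9432 of 12025 gene reads in replicate 1 (78.4%) and 6867 of 8170 in replicate 2 (84.1%). Known transcripts held 12.8% of its reads in replicate 1 and 1.05% in replicate 2, and new models of 1 exon held 7.49% in replicate 1 and 13.6% in replicate 2. The Hsd3b genes are close copies of each other, so reads could be split among them.

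Among the other cortical genes, the leading member of Nr5a1 had 663 reads in replicate 1 and 590 in replicate 2, more than the complete parent transcript with 444 in replicate 1 and 388 in replicate 2. Suffix models held 50.8% of Nr5a1 reads in replicate 1 and 46.2% in replicate 2. Cyp11a1, the first enzyme of steroid synthesis, had 9 members in replicate 1 and 10 in replicate 2 but shares of 5.41% in replicate 1 and 6.09% in replicate 2. Cyp21a1, the 21-hydroxylase, which shares sequence with a pseudogene, had 6.01% in replicate 1 and 4.34% in replicate 2. Cyp11b1, the 11β-hydroxylase and a close copy of Cyp11b2, had 3.63% in replicate 1 and 4.30% in replicate 2, and Star, which brings cholesterol into mitochondria, had 4.61% in replicate 1 and 5.25% in replicate 2. Akr1d1, a steroid 5β-reductase, had 15.5% in replicate 1 and 13.7% in replicate 2. Star's leading member lost 3 exons and had 312 reads in replicate 1 and 349 in replicate 2.

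Suffix models held at least 50% of the reads in 219 genes of replicate 1, in 183 of replicate 2 and in 157 of both, among 6413 genes with 20 or more reads in each of the libraries. These 157 genes, chosen by that share, held 19.3% of all suffix reads in replicate 1 and 20.7% in replicate 2. They had no read on a known transcript in either library in 37 cases. Their main transcript, the annotated one with the most reads, had a median length of 4222 bases and 19 exons, beside 2574 bases and 8 exons over all 6413 genes.

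**Figure D2:**
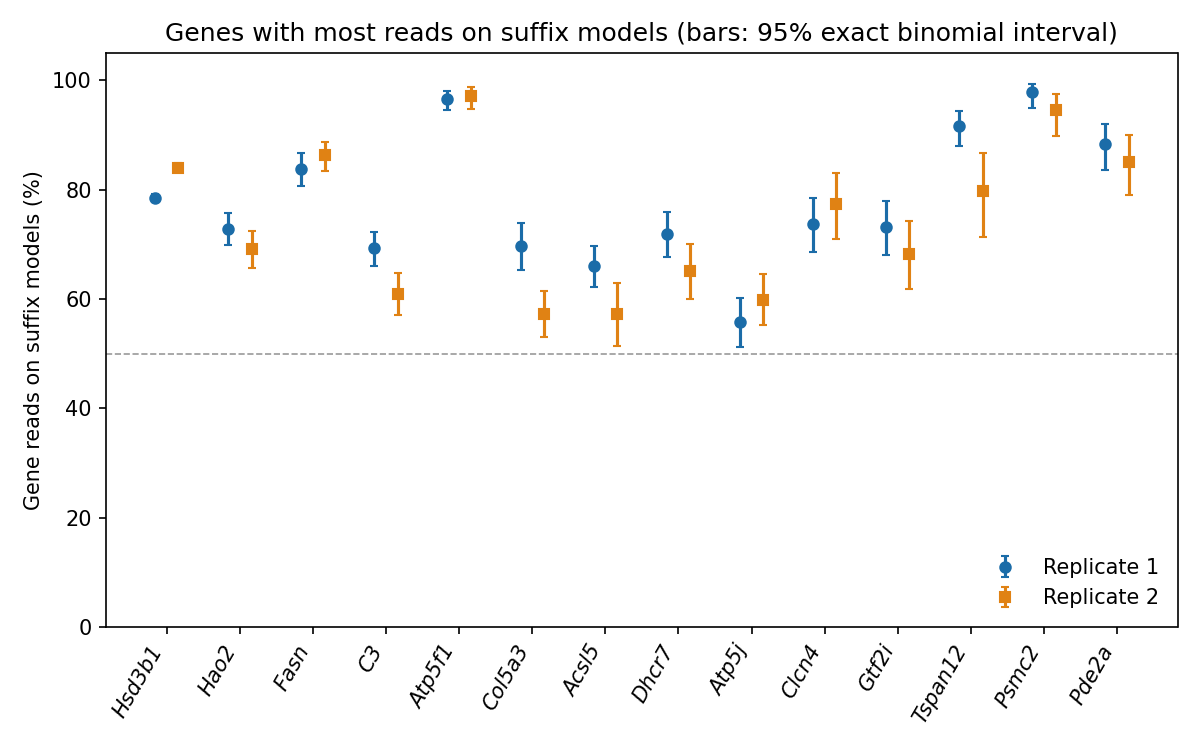
Share of gene reads on suffix models in 14 of the 15 genes with the most suffix reads among the 157, for replicate 1 (blue circles, left) and replicate 2 (orange squares, right), with 95% exact binomial intervals that cover counting error only. Shares lie between 55.7% in Atp5j and 97.8% in Psmc2 in replicate 1, and all points are above the dashed line at 50%.

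The 157 genes took 2 forms. In 55 of them, the same model held at least 50% of the suffix reads in both libraries. In 87, no model did so in either library, and 15 were of neither form. The genes with 1 leading model had a median main transcript of 2562 bases and a median of 5 suffix models in replicate 1 and 4 in replicate 2. The genes with many models had 4614 bases and 13 models in each library.

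Among the genes with 1 leading model, 22 lost a single exon and 32 lost at least 2. Of the 22, the model kept the whole coding region in 18 and began within 50 bases of an annotated start in both libraries in 17. Atp5f1, the b subunit of ATP synthase, had 496 reads on its leading model in replicate 1 and 295 in replicate 2, and 0 on known transcripts in both. Suffix shares in Psmc2, a proteasome ATPase, were 97.8% in replicate 1 and 94.5% in replicate 2. They were 93.9% in replicate 1 and 90.4% in replicate 2 in Sdsl, a serine dehydratase-like enzyme, and 91.6% in replicate 1 and 79.8% in replicate 2 in Tspan12, a tetraspanin. Dhcr7 had 72.0% in replicate 1 and 65.2% in replicate 2, with 0 reads on known transcripts in both, and Clcn4, a chloride-proton exchanger, had 73.8% in replicate 1 and 77.4% in replicate 2. Atp5j, a coupling factor of ATP synthase, had 55.7% in replicate 1 and 59.9% in replicate 2. Pde2a, in a locus that the annotation marks as overlapping another, had 88.3% in replicate 1 and 85.1% in replicate 2.

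Of the 32 genes that lost at least 2 exons, the model began on the first base of an annotated exon in both libraries in 18. Hao2 lost 4 exons, with 519 reads on the model in replicate 1 and 425 in replicate 2, against 200 in replicate 1 and 166 in replicate 2 on the complete parent. Bag3 had 77 reads on the model in replicate 1 and 112 in replicate 2, which made 98.7% of its suffix reads in replicate 1 and 97.4% in replicate 2. Robo1, which lost 23 exons, had shares of 72.3% in replicate 1 and 81.0% in replicate 2. Nr1d1, a nuclear receptor of the circadian clock, lost 4 exons with shares of 73.8% in replicate 1 and 73.7% in replicate 2. The complement genes C4b and C4a, near-identical copies whose reads could be split between them, lost 35 exons in C4b and 34 in C4a, with C4b at 71.0% in replicate 1 and 56.1% in replicate 2, and C4a at 84 of 124 reads in replicate 1 and 58 of 116 reads in replicate 2.

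In the genes with many models, reads were spread over many inner exons. Fasn, fatty acid synthase, had 30 suffix models in replicate 1 and 35 in replicate 2, which began at 29 different exons of 43 in replicate 1 and at 33 in replicate 2. Its share was 83.8% in replicate 1 (95% exact interval 80.6 to 86.7) and 86.3% in replicate 2 (83.5 to 88.8), and known transcripts had 15 reads in each. C3, the central complement protein, had 38 models in replicate 1 and 44 in replicate 2, with shares of 69.3% in replicate 1 and 60.9% in replicate 2. Col5a3 had 61 models and 69.7% in replicate 1, and 66 models and 57.3% in replicate 2. Gtf2i, a transcription factor, had 73.3% in replicate 1 and 68.3% in replicate 2, and Mbnl1, a splicing regulator, 64.5% in replicate 1 and 66.9% in replicate 2. Acly, ATP citrate lyase, had the most members of any gene, 29 in replicate 1 and 27 in replicate 2, at shares of 21.4% in replicate 1 and 15.6% in replicate 2. Eef2, an elongation factor, had 12 members in each library and 44.0% in replicate 1 and 40.4% in replicate 2.

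**Figure D3:**
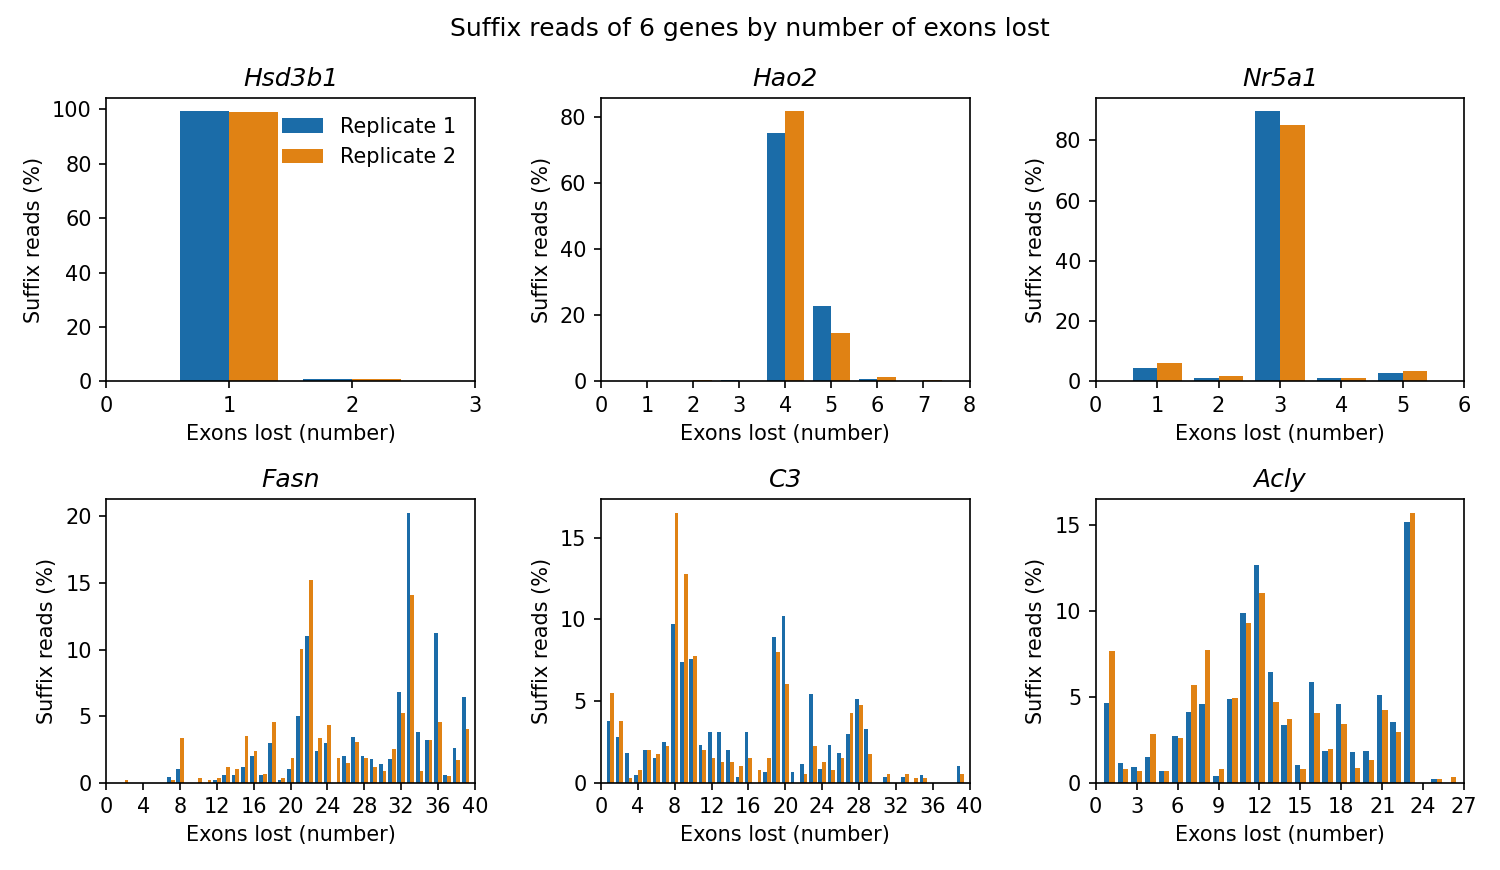
Percent of each gene's suffix reads by the number of exons lost, for replicate 1 (blue) and replicate 2 (orange). Hsd3b1, Hao2 and Nr5a1 have 1 tall bar, at 1, 4 and 3 exons lost, whereas in Fasn, C3 and Acly no bar passes 20.3% of the suffix reads.

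The members with the most reads among those that lost at least 10 exons were mostly from such long transcripts. The highest in Acly lost 23 of 28 exons, with 163 reads in replicate 1 and 144 in replicate 2, and another lost 12, with 100 in replicate 1 and 79 in replicate 2. In Fasn they lost 33 exons, with 101 reads in replicate 1 and 84 in replicate 2, and 22 exons, with 55 in replicate 1 and 91 in replicate 2. A model of Pcx, pyruvate carboxylase, lost 10 exons with 93 reads in replicate 1 and 66 in replicate 2, a model of Nisch, an imidazoline-binding protein, lost 15 with 68 in replicate 1 and 65 in replicate 2, and a model of Gtf2i lost 24 with 81 in replicate 1 and 45 in replicate 2. Cep131, a centrosomal protein, had a model that lost 14 exons and began at an annotated start, with 173 reads in replicate 1 and 23 in replicate 2.

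Members that began in an intron or outside the gene were few. Of the members of both libraries, 38 did so in replicate 1 and 17 in both. The members named next were chosen from those 38, by their start in replicate 1. Members that began in an intron in replicate 2 only are therefore not among them. A Cyp11a1 model of 4 exons was read 677 times in replicate 1 and 475 times in replicate 2. Its first exon reached 501 bases into the intron upstream of the parent's exon in replicate 1 and 2074 in replicate 2. A 2-exon Cyp11a1 model with 93 reads in replicate 1 and 69 in replicate 2 began at the same bases. An 8-exon Cyp11a1 model had 111 reads in replicate 1, where it began in an intron, against 52 in replicate 2, where it began in an exon. Akr1d1 had 265 reads in replicate 1 and 160 in replicate 2 on a model that began at the same base in both, 2066 bases inside the gene. In Adh1, an alcohol dehydrogenase (111 reads in replicate 1 and 64 in replicate 2), Car3, a carbonic anhydrase (121 in replicate 1 and 38 in replicate 2), and Gsn, gelsolin (96 in replicate 1 and 57 in replicate 2), the start lay in an intron in replicate 1 and in an exon in replicate 2. Elovl5, a fatty acid elongase, had 79 reads in replicate 1 against 40 in replicate 2 on a model that began in an intron in both. Apmap, an adipocyte membrane protein, had 68 reads in replicate 1, starting in an intron, and 21 in replicate 2, starting exactly on an annotated start.

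Long genes carried larger suffix shares, although with wide spread. In replicate 1 the median share was 0.466% for main transcripts up to 1000 bases, 2.55% up to 2000, 4.02% up to 3000, 6.38% up to 4000, 7.22% up to 5000, 8.71% up to 7000 and 6.19% above. In replicate 2 the medians in the same order were 0.410%, 3.03%, 4.17%, 6.15%, 6.90%, 8.96% and 6.52%. Among genes with 100 to 499 reads, the medians in replicate 1 were 0.816% for the shortest class, 5.61% between 3000 and 4000 bases and 5.26% above 7000, against 1.14%, 5.99% and 5.50% in replicate 2. Genes with at least 50% of reads on suffix models were also counted by length class. By main transcript, they made up 2.62% of the class up to 1000 bases in replicate 1 and 2.47% in replicate 2. The share was 1.04% from 1000 to 2000 bases in each library, and 11.8% in replicate 1 and 13.3% in replicate 2 above 7000. By longest annotated transcript, it was 0.983% up to 1000 bases in replicate 1 and 0.737% in replicate 2. From 1000 to 2000 bases it was then 1.07% in replicate 1 and 0.991% in replicate 2. A higher share in the shortest class than in the next was therefore seen only by main transcript, which can be short in a long gene. Across genes, which are not independent replicates and share a library, the Spearman correlation between share and length was 0.33 in replicate 1 and 0.29 in replicate 2, and between share and exon number 0.58 in replicate 1 and 0.54 in replicate 2. A suffix model keeps at least 1 intron of an annotated transcript and lacks at least 1. Transcripts with 1 or 2 exons therefore cannot have one. Part of the low share in the short classes and of these correlations is thus fixed by the definition, and its size was not measured.

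**Figure D4:**
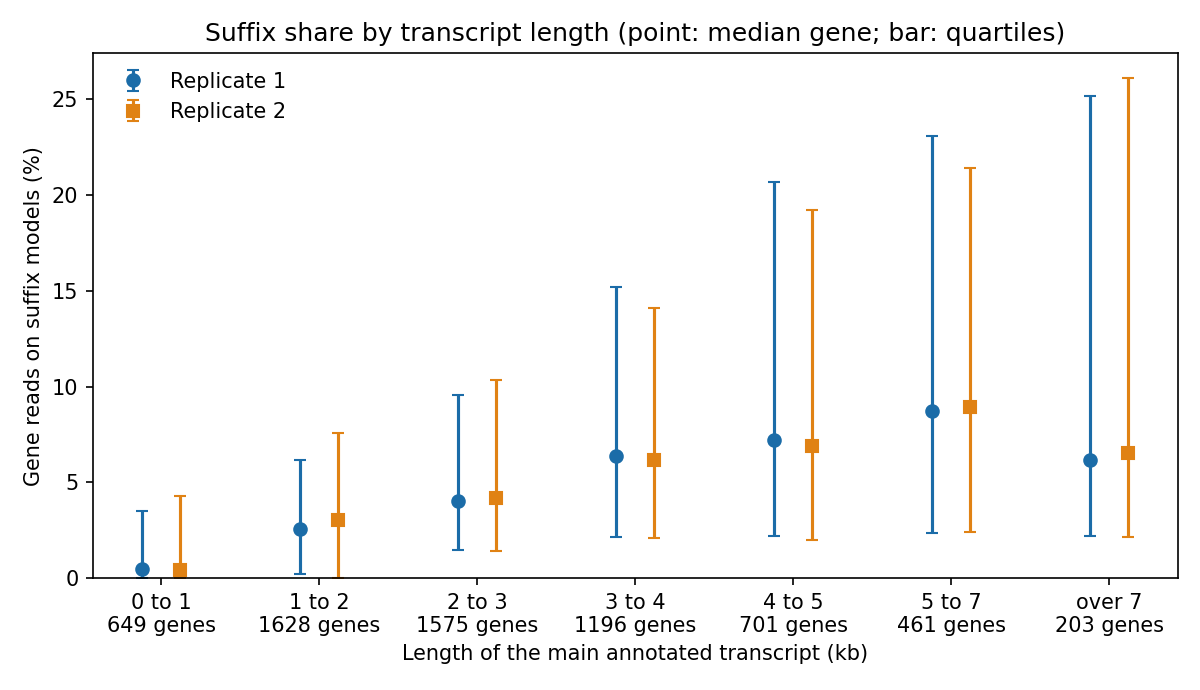
Median share of gene reads on suffix models (points) with quartiles (bars) by the length of the main annotated transcript, for replicate 1 (blue circles, left) and replicate 2 (orange squares, right), over the 6413 genes. Medians go up to 8.71% in replicate 1 and 8.96% in replicate 2 in the class from 5000 to 7000 bases, and the bars overlap between neighbouring classes.

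Gene by gene, the suffix share was compared between the libraries with a two-sided Fisher's exact test on suffix and other reads, with Benjamini-Hochberg adjustment over 6413 genes, which compares these libraries and not conditions. The median share was 3.85% in replicate 1 and 4.19% in replicate 2, and the shares differed by at most 10 points in 92.8% of genes. The test called 31 genes (0.483%), of which 16 were higher in replicate 1 (0.249%) and 15 were higher in replicate 2 (0.234%). Some of these calls came with a different class given to the same intron chain in each library. When a chain was counted as suffix in both libraries if it was suffix in either, an alternative added after the data were seen, 20 genes were called (0.312%), 10 in the direction of replicate 1 (0.156%) and 10 in that of replicate 2 (0.156%), and each of these genes was among the 31.

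Several of the largest differences were of this kind, among them those of Ndufa13 and Txnrd2, whereas that of Arhgef15, of 53.6 points, did not move with the classing. A 4-exon chain of Ndufa13, a subunit of respiratory complex I, had 408 reads in replicate 1, where it was classed as suffix, and 341 in replicate 2, where it was classed as lacking both ends. Its share was thus 96.9% in replicate 1 and 0% in replicate 2 (adjusted p = 1.08e-199, Fisher's exact test), and 96.9% in replicate 1 and 100% in replicate 2 with one class for both (adjusted p = 0.0902). Txnrd2, mitochondrial thioredoxin reductase, had 80.5% in replicate 1 and 5.13% in replicate 2 (adjusted p = 4.64e-86, Fisher's exact test), and 80.5% in replicate 1 and 80.3% in replicate 2 with one class (adjusted p = 1). Likewise Aars, alanyl-tRNA synthetase, had 13.7% in replicate 1 and 38.3% in replicate 2 as deposited, and 41.0% in replicate 1 and 38.3% in replicate 2 with one class. Ipo4, an importin, had 28.4% in replicate 1 and 60.8% in replicate 2 as deposited, and 71.6% in replicate 1 and 62.7% in replicate 2 with one class. For Rab4b, a GTPase of recycling endosomes, the gene assigned differed and not the class: a 5-exon chain with 80 reads in replicate 1 was assigned in replicate 2, with 45 reads, to its neighbour Egln2, a prolyl hydroxylase. Cyp21a1 was called higher in replicate 1 as deposited (adjusted p = 1.59e-10, Fisher's exact test), and lower with one class, at 8.59% in replicate 1 and 11.4% in replicate 2 (adjusted p = 5.82e-17).

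Other calls, except Kxd1, held in the same direction under both ways of classing. Hsd3b1 was lower in replicate 1 by 5.61 points (78.4% in replicate 1, 84.1% in replicate 2, adjusted p = 2.31e-20, Fisher's exact test). Over known and incomplete models alone the difference was 19.3 points. New models of 1 exon, with 901 reads in replicate 1 and 1112 in replicate 2, enter that set only where they were classed as incomplete. The larger difference therefore depends on the class given to them in each library and does not add to the call. Atp5b, the catalytic β subunit of ATP synthase, had 8.48% in replicate 1 and 16.3% in replicate 2 (adjusted p = 1.2e-23, exact test), and its leading member, which kept the last 2 of 10 exons, had 303 reads in replicate 1 and 379 in replicate 2. Acly had 21.4% in replicate 1 and 15.6% in replicate 2 (adjusted p = 4.9e-12, exact test). Akr1c18, 20α-hydroxysteroid dehydrogenase, one of a family of close copies, had 47 suffix reads of 441 in replicate 1 and 571 of 2578 in replicate 2 (10.7% in replicate 1 and 22.1% in replicate 2, adjusted p = 3.14e-06, exact test). Cep131 had 60.6% in replicate 1 and 36.9% in replicate 2, Cars2, mitochondrial cysteinyl-tRNA synthetase, 34.1% in replicate 1 and 8.97% in replicate 2, and Arhgef15, a guanine nucleotide exchange factor, 67.9% in replicate 1 and 14.3% in replicate 2 from 28 reads in each library. Over known and incomplete models alone, the differences of Cep131 and Cars2 were 19.0 and 11.1 points and were not called. Fabp4, the adipocyte fatty acid-binding protein, had 22.2% in replicate 1 and 43.7% in replicate 2 (adjusted p = 1.94e-11, exact test), beside adipocyte markers that summed to 2419 CPM in replicate 1 and 1067 CPM in replicate 2, and their part in this result was not tested. Kxd1, a subunit of a lysosome-positioning complex, had 35.1% in replicate 1 and 61.4% in replicate 2, with an adjusted p of 0.0476 as deposited and 0.0615 with one class.

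**Figure D5:**
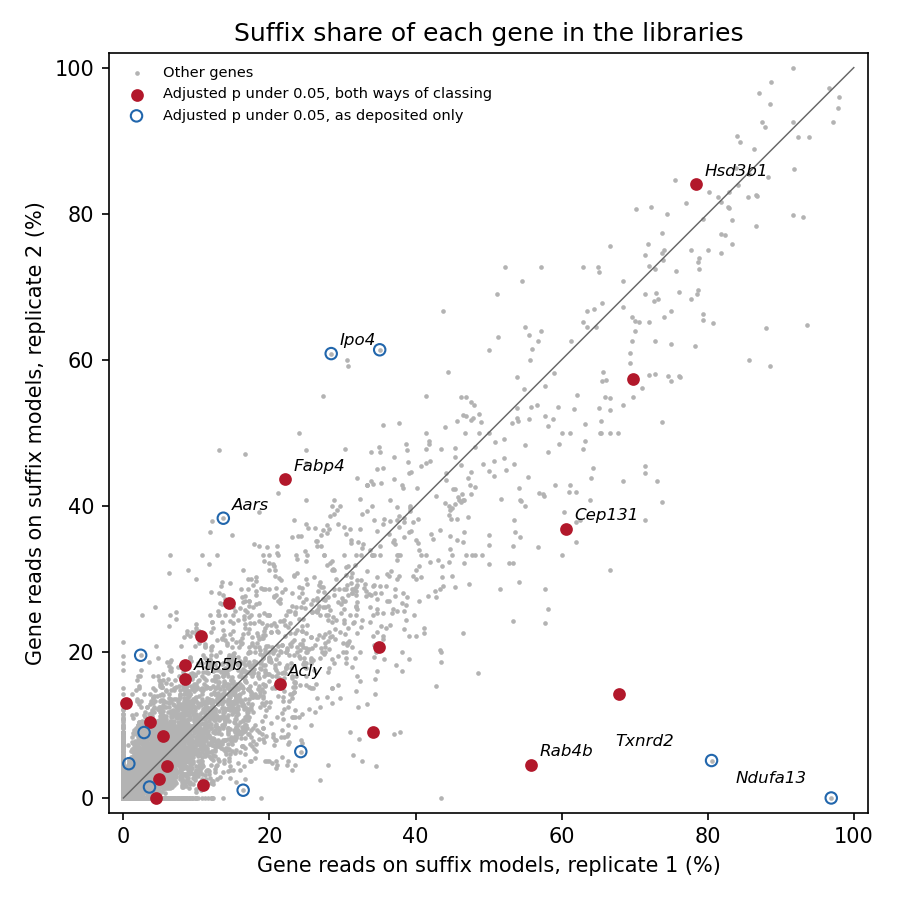
Share of gene reads on suffix models in replicate 1 (x axis) and replicate 2 (y axis) for 6413 genes, with the line of equal shares. Filled red points mark the 20 genes called by Fisher's exact test under both ways of classing, of which Cyp21a1 changed direction, and open blue circles the 11 called only with the deposited classes, such as Ndufa13 at 96.9% in replicate 1 and 0% in replicate 2.

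Gene lists are given beside all measured genes, of which 18.6% had a member in both libraries and whose median share was 3.85% in replicate 1 and 4.19% in replicate 2. The median gene had 89 reads in replicate 1 and 60 in replicate 2. Most lists hold deeper genes, except the cytoskeletal list, with medians of 46 reads in replicate 1 against 44 in replicate 2, and the endothelial and macrophage list, with 58.5 in replicate 1 and 52 in replicate 2, and deeper genes more often had a member. Among genes with a main transcript up to 1000 bases, 65.3% of those with at least 500 reads in replicate 1 had one, against 10.4% of those with 20 to 99 reads, and in replicate 2 these shares were 62.1% against 8.21%. At greater depth the Fisher test can also call smaller differences, and 31 of all 6413 genes (0.483%) were called. Lists held 12 to 30 measured genes, so 0 calls do not set a list apart. Of 23 steroidogenesis genes, 17 had a member in both libraries, with median shares of 4.61% in replicate 1 and 6.09% in replicate 2 at a median depth of 1066 reads in replicate 1 and 1287 in replicate 2, and 3 were called. Of these, Hsd3b1 and Akr1c18 were higher in replicate 2 under both ways of classing, and Cyp21a1 changed direction between them. Of 16 chromaffin genes measured, 11 had a member in both and 0 were called. Chga and Chgb, the chromogranins, had 7.87% and 5.39% in replicate 1, against 9.19% and 6.33% in replicate 2. Th, tyrosine hydroxylase, had 5.53% in replicate 1 and 7.02% in replicate 2, and Cpe, a carboxypeptidase of secretory granules, 4.68% in replicate 1 and 4.05% in replicate 2. Dbh, dopamine β-hydroxylase, had 64.7% in replicate 1 and 64.5% in replicate 2.

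Lipid genes were represented by 26 genes of cholesterol supply and 22 of fatty acid synthesis and oxidation. Median shares were 8.29% in replicate 1 and 10.8% in replicate 2 for cholesterol supply, and 12.9% in replicate 1 and 15.7% in replicate 2 for fatty acids. Beside 0.483% of all measured genes, 1 gene of each list was called, Srebf1 and Acly, both higher in replicate 1. Srebf1, the transcription factor of lipid synthesis, had 35.0% in replicate 1 and 20.6% in replicate 2. Its difference of 14.3 points was no longer called when genes with 1 or more reads in each library were tested, and was 22.3 points over known and incomplete models alone. Scap, its escort protein, had 61.7% in replicate 1 and 53.3% in replicate 2, and Soat1, which esterifies cholesterol, 18.2% in replicate 1 and 18.6% in replicate 2. Elovl5 had 23.1% in replicate 1 and 26.3% in replicate 2, and Fads2, a desaturase, 4.50% in replicate 1 and 3.34% in replicate 2. Of 13 adipocyte genes, 2 were called, both higher in replicate 2, Fabp4 and Cfd, and Lpl, lipoprotein lipase, had 22.1% in replicate 1 against 23.7% in replicate 2.

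The 24 genes of oxidative phosphorylation had low medians, 2.21% in replicate 1 and 2.45% in replicate 2. Beside 0.483% of all measured genes, 2 of them were called, Atp5b and Slc25a3, the mitochondrial phosphate carrier, both higher in replicate 2. The 30 ribosomal proteins had medians of 3.10% in replicate 1 and 4.34% in replicate 2, with Rpsa at 16.6% in replicate 1 and 24.9% in replicate 2 and Rpl6 at 12.5% in replicate 1 and 18.3% in replicate 2, and 0 were called. The 26 chaperones had 3.53% in replicate 1 and 3.78% in replicate 2, with Hsp90ab1 at 5.99% in replicate 1 and 5.45% in replicate 2, and 0 were called.

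The cytoskeletal list and the capsule and matrix list had the longest median main transcripts and the highest median shares of the lists. For 12 cytoskeletal and other long genes these were 50.1% in replicate 1 and 41.1% in replicate 2, at a median main transcript of 7212 bases, with Tln1, talin, at 77.0% in replicate 1 and 81.4% in replicate 2 and Dync1h1, the dynein heavy chain, at 81.8% in replicate 1 and 81.6% in replicate 2. For 15 capsule and matrix genes they were 22.0% in replicate 1 and 17.2% in replicate 2, with Lamb1, a laminin chain, at 76.1% in replicate 1 and 69.3% in replicate 2 and Sparc at 22.1% in replicate 1 and 22.2% in replicate 2. The 19 translation factors had 10.4% in replicate 1 and 13.1% in replicate 2, with Eif4g1, a scaffold of initiation, at 79.4% in replicate 1 and 65.5% in replicate 2. The 25 splicing factors had 7.20% in replicate 1 and 6.67% in replicate 2, with Prpf8, the core spliceosome protein, at 91.7% in replicate 1 and 100% in replicate 2 from 24 gene reads in replicate 1 against 34 in replicate 2. The 12 endothelial and macrophage genes had 5.47% in replicate 1 and 5.02% in replicate 2. In these 5 lists 0 genes were called, beside 0.483% of all measured genes.

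Of 38 genes listed for known inner or alternative promoters, 18 were measured and 12 had a member in both libraries. Median shares were 11.8% in replicate 1 and 8.66% in replicate 2, and 1 was called, beside 0.483% of all measured genes. It was Abcb1b, a drug exporter, with 4.93% in replicate 1 and 2.65% in replicate 2 (adjusted p = 0.00156, Fisher's exact test). Aldoa, a glycolytic aldolase, had a 7-exon member with 679 reads in replicate 1 and 319 in replicate 2 that began exactly on an annotated start, and a share of 17.9% in replicate 1 and 18.8% in replicate 2. Gnas, the stimulatory G protein α subunit, had a 12-exon member with 126 reads in replicate 1 and 46 in replicate 2 that began at an annotated start and kept the whole coding region. Pcx had 31.9% in replicate 1 and 26.3% in replicate 2, Sept9, a septin, 33.8% in replicate 1 and 33.9% in replicate 2, and Tns1, tensin, 18.8% in replicate 1 and 19.7% in replicate 2. Gsn, Cdkn1c, Scp2 and Lmna had between 1.94% and 6.22% in replicate 1 and between 2.59% and 8.33% in replicate 2. Mylk, the myosin light chain kinase, had 57.1% of 21 reads in replicate 1 and 64.0% of 25 reads in replicate 2.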

How the data were processed

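Long-read RNA sequencing libraries of adrenal gland were measured. Per the file headers, the authors deposited counts of reads per transcript model on mm10 with GENCODE M21, with no normalization, together with each model's class and exon positions. The aligner, read filters and the rule that set model starts are not given in the sources used here. The members and gene lists were chosen with earlier results of these data known. Models were matched between libraries by chromosome, strand and intron chain. The parent was an annotated transcript of the same gene whose chain ends in the model's chain, the one with the most reads where several did. Gene shares are suffix reads over all reads of the gene, and the share over all annotated genes leaves out spike-ins. The library shares of 7.76% in replicate 1 and 8.08% in replicate 2 are over all reads of the library. Genes measured by 20 or more reads in both libraries were compared by Fisher's exact test, adjusted after Benjamini and Hochberg at 0.05 (scipy 1.17.1, statsmodels 0.14.6, Python 3.11.15). With 1 group there was no test of a condition. On simulated data, 99% of 200 genes whose share was changed by 20 points, each with 200 or more reads per library, were recovered among 6413, with 1 unchanged gene called. The simulated reads were binomial draws around each gene's pooled share, with no change of class between libraries. That result therefore covers counting error only. Depth was 1478362 and 1007541 reads, and intervals are exact binomial and cover counting error only. Named genes were the 12 with the most member reads, the 15 with the most among those with at least 50% on suffix models, the 10 largest called differences, 10 members in introns, 10 with at least 10 exons lost, up to 4 per list, and members of the promoter list found in both libraries. A few genes that met these rules are not reported here.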

Additional observations from a re-analysis of the deposited data

How the results depend on the processing

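Counts of members depend on the read minimum: with 3 reads there were 7268 in replicate 1 and 5377 in replicate 2, with 10 reads 1628 and 1051, and with the minimum scaled to depth 2101 in replicate 1. Adding models that lack both ends kept both counts within 1.5 times. Members of both libraries numbered 4036 with 1 read allowed in the other library and 878 with a minimum of 10, and single libraries held between 2629 and 3780. Over all annotated genes the suffix share was 8.10% in replicate 1 and 8.69% in replicate 2. It was 5.38% and 5.29% from members alone, 9.07% and 10.1% over known and incomplete models, and 8.22% and 8.95% with one class per chain. The call count of 31 was between 27 and 42 under the other settings and 20 with one class per chain, which turned the difference of replicate 1 minus replicate 2 to -3.09 points in Ndufa13, 8.90 in Ipo4, 2.73 in Aars and -2.83 in Cyp21a1. Of the 42 genes called over known and incomplete models, 24 were among the 31. With at least 50 reads in each library, 29 of 37 were. All 28 called with 1 or more reads, and all 27 called by a chi-square test, were among the 31. Unadjusted, 308 genes passed 0.05. Genes with at least 50% on suffix models in both libraries numbered 64 with at least 50 reads in each library, 210 over known and incomplete models and 165 with one class per chain. From single libraries they numbered 268 in replicate 1 and 196 in replicate 2. These counts are not over the 6413 genes measured in both libraries, which gave 219 in replicate 1 and 183 in replicate 2. Exon starts made 69.9% of the members of both libraries in replicate 1. With the parent that loses the fewest exons, the median loss was 3 in both libraries. No paired analysis was possible because the series has 1 group. The Fisher comparison cannot be made without either library. The search upstream of starts outside RefSeq windows was not run. The cause of these shifts was not tested.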
